A study of Rattus norvegicus with 2 samples.

Results

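The elastic fibre genes described here are 10 genes taken by symbol: the fibulins Fbln1, Fbln2, Fbln5, Efemp1 (fibulin-3) and Efemp2 (fibulin-4), the elastin gene Eln, and the microfibril genes Fbn1, Mfap4, Mfap5 and Ltbp2. Of the 10, 9 are among the 25399 genes of the count files, and Mfap4 is not, so it was not analysed here. The set was assembled around Fbln2, which was chosen by its measured ratio of Nuc1 over WT counts in astrocyte-like cells. The Fbln2 values are therefore a description, and the question followed is whether the other members showed the same difference, and in which cells.

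Elastic fibres give tissues their recoil and consist of an elastin core on a scaffold of fibrillin microfibrils. Fibulins are secreted proteins that bridge tropoelastin, microfibrils, basement membrane proteins and the enzymes that cross-link elastin. In the optic nerve these proteins belong to the connective tissue of the sheath and septa and to vessel walls, while astrocyte endfeet border the basement membrane that separates nerve from connective tissue.

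Cells came from mixed primary cultures of the optic nerve of Sprague Dawley (WT) rats and of Nuc1 rats, which carry a spontaneous insertion in the crystallin gene Cryba1, at postnatal day 7 by the sample labels. Each genotype gave 1 droplet-based 3′ library, with 1966 WT and 1780 Nuc1 cells kept and a median of 14053.5 and 16567.5 UMIs (unique molecular identifiers, 1 per captured transcript) per cell. With 1 library per genotype there is no replicate check, no p-value was computed, and genotype cannot be told apart from culture, animals or library. Cryba1 itself had 0 UMIs in both libraries, which is under the 3 counts that a 0 allows, so the genotype labels could not be checked on it. UMIs of the Y-linked genes Eif2s3y or Kdm5d were found in 1 WT and 411 Nuc1 cells, so the libraries differed in the sex of their cells, and 2 cell barcodes occurred in both.

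Clustering without the elastic fibre genes gave 10 clusters, numbered 0 to 9. Clusters 0, 1, 2, 4 and 5 were collagen-rich, meaning that their median cell had over 1000 CPM (UMIs per 1000000 UMIs) of Col1a1, Col3a1, Dcn and Lum together, and held 1745 WT and 1263 Nuc1 cells. They were led by Igfbp5 and Ccn3 in cluster 0, Postn and Thbd in cluster 1, Actg2 and Penk in cluster 2, Inmt and Cyp26b1 in cluster 4, and the cell division genes Ube2c and Top2a in cluster 5. Their make-up was unequal, with 54 WT but 368 Nuc1 cells in cluster 4 and 480 but 169 in cluster 2. Cluster 3 was astrocyte-like, led by Gfap, Fabp7, Hspb1 and Aqp4, with 107 WT and 350 Nuc1 cells. Cluster 6 (15 and 103 cells) was motile-cilia-like, cluster 7 (52 and 10) oligodendrocyte-lineage-like and cluster 9 (25 and 22) macrophage-like, while cluster 8 (22 and 32), led by Ttr, Gldn and Fbln2, was left without a cell type name. The collagen limit was applied to the cells of both libraries together. By library, the median cell of cluster 8 had 2082 CPM of those 4 genes in WT, over the limit, and 324 in Nuc1.

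Most Fbln2 UMIs lay outside the collagen-rich clusters. In the WT library 47.1% of its 731 UMIs lay in astrocyte-like cells and 36.1% in the 22 cells of cluster 8, against 10.1% in the collagen-rich clusters. The other 8 measured members had from 69.4% (Ltbp2) to 99.3% (Mfap5) of their WT UMIs in collagen-rich cells. These shares also reflect cell numbers, since 1745 of the 1966 WT cells were collagen-rich. By level, WT Ltbp2 was likewise higher outside them, at 443 CPM in cluster 8 and 48.0 in astrocyte-like cells against 28.0 in collagen-rich cells. WT Fbln5 was also highest in cluster 8, at 296 CPM against 66.7 in collagen-rich cells. In the Nuc1 library, with 198 Fbln2 UMIs in all, 71.7% lay in cluster 8 and 17.7% in astrocyte-like cells. Below, the level of each gene is compared with itself between cells and libraries, not with that of other genes.

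**Figure D1:**
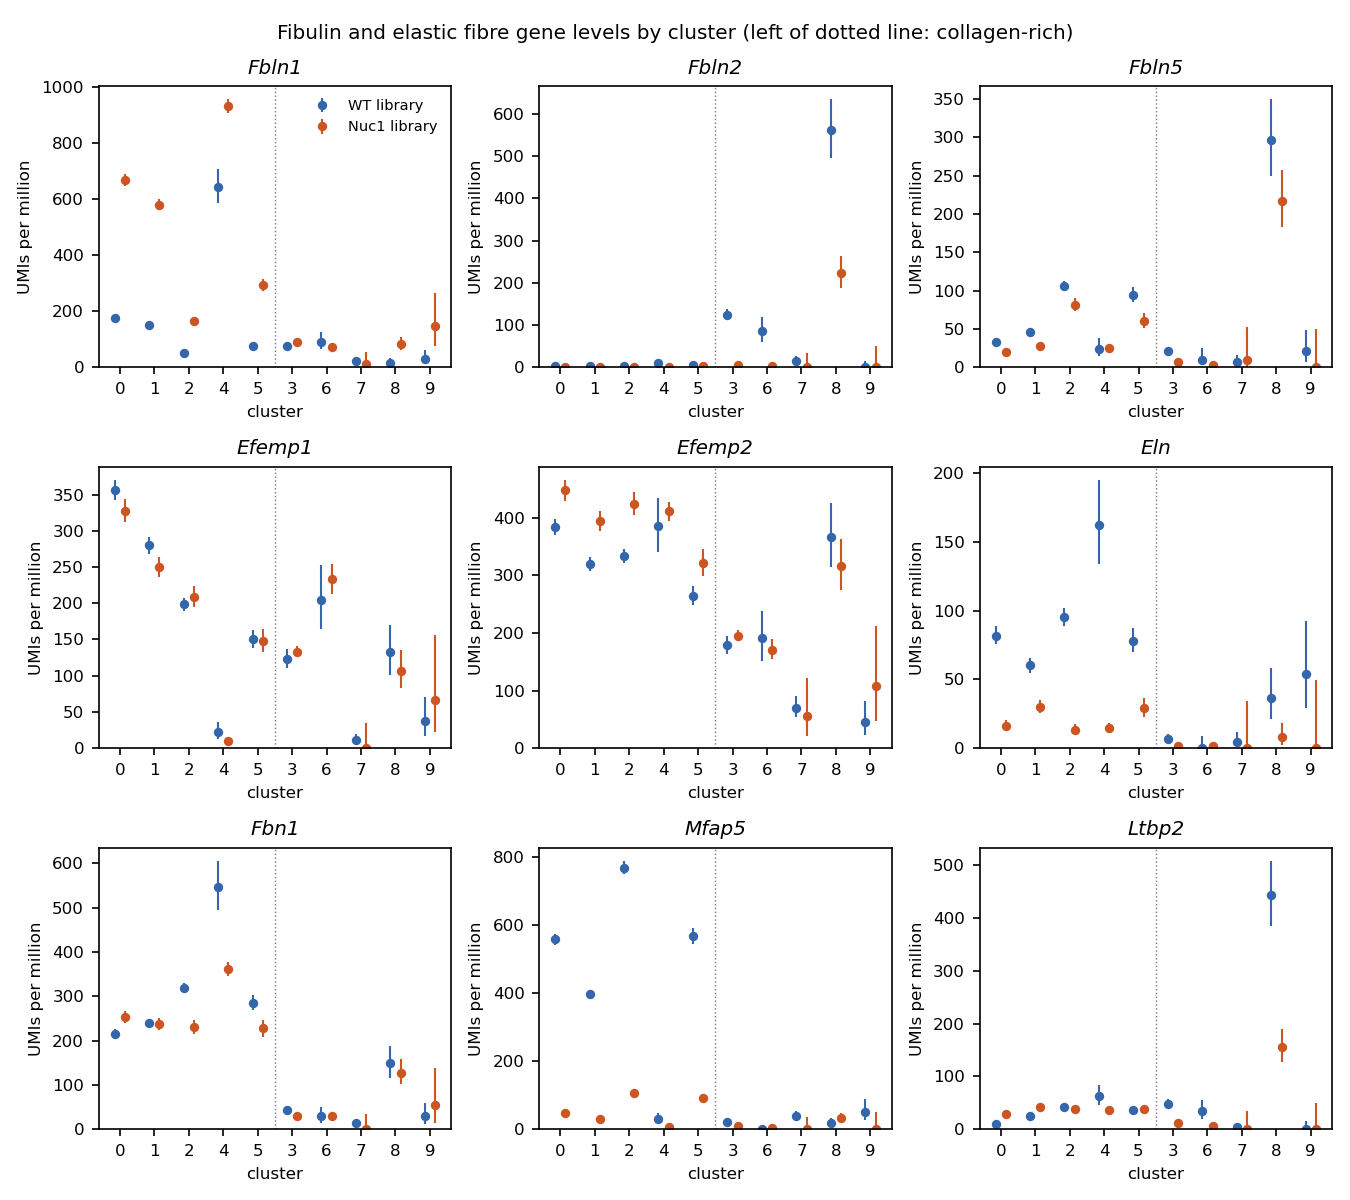
CPM of the 9 measured genes (one panel each, linear axes from 0) in each cluster, for the WT and Nuc1 libraries, with 95% Poisson intervals that cover counting error only; the collagen-rich clusters stand left of the dotted line. Fbln2 is highest in cluster 8 in both libraries, at 563 and 224 CPM, while Mfap5 is high in the WT collagen-rich clusters other than cluster 4 and low in the Nuc1 ones.

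Fibulin-2 binds fibronectin, nidogens, fibrillin-1 and the proteoglycan versican, and sits in basement membranes and elastic tissue. Its level in the WT library was 563 CPM (497 to 635, 95% Poisson interval) in cluster 8, 123 (110 to 137) in the astrocyte-like cluster and 85.8 (60.1 to 119) in the motile-cilia-like cluster. The interval of the last of these overlapped that of the astrocyte-like cells, whereas cluster 8 stood above both. The WT level in the motile-cilia-like cluster rests on 36 UMIs in 6 of 15 cells, and 1 cell held 16 of them. All 13 Fbln2 UMIs of the WT oligodendrocyte-lineage-like cells came from 1 cell, and the macrophage-like cells had 0, which at their depth allows up to 12.5 CPM. In the Nuc1 library the levels were 224 CPM (188 to 264) in cluster 8, 3.90 (2.71 to 5.42) in astrocyte-like and 3.67 (1.58 to 7.23) in motile-cilia-like cells. Nuc1 values were thus below the WT ones in all 3 cell groups, with the widest gaps outside cluster 8.

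In the astrocyte-like cluster 344 WT UMIs stood against 35 Nuc1 UMIs from more cells, a log2 ratio of Nuc1 over WT of −4.98 (−5.53 to −4.48, exact conditional interval, counting error only). None of the 7604 genes with at least 100 UMIs in this cluster had a lower ratio, the measure by which Fbln2 was chosen. Fbln2 was found in 57 of 107 WT cells and 26 of 350 Nuc1 cells, and after thinning every cell to 5000 UMIs in 29.2% and 3.77%. Among WT cells of the oligodendrocyte-lineage-like and macrophage-like clusters 1 of 52 and 0 of 25 had a Fbln2 UMI, too few cells to set a background share. WT UMIs were spread unevenly, with up to 47 in a cell and 9 cells holding 50% of them, and the highest Nuc1 cell had 7. When cells with at least 3 Fbln2 UMIs were left out of both libraries, a choice made after seeing the data, the log2 ratio was −2.43 (−3.22 to −1.65). That step removes cells by the value being compared, and nearly all of them from the WT library. It therefore narrows the gap by construction and is no check of it.

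**Figure D2:**
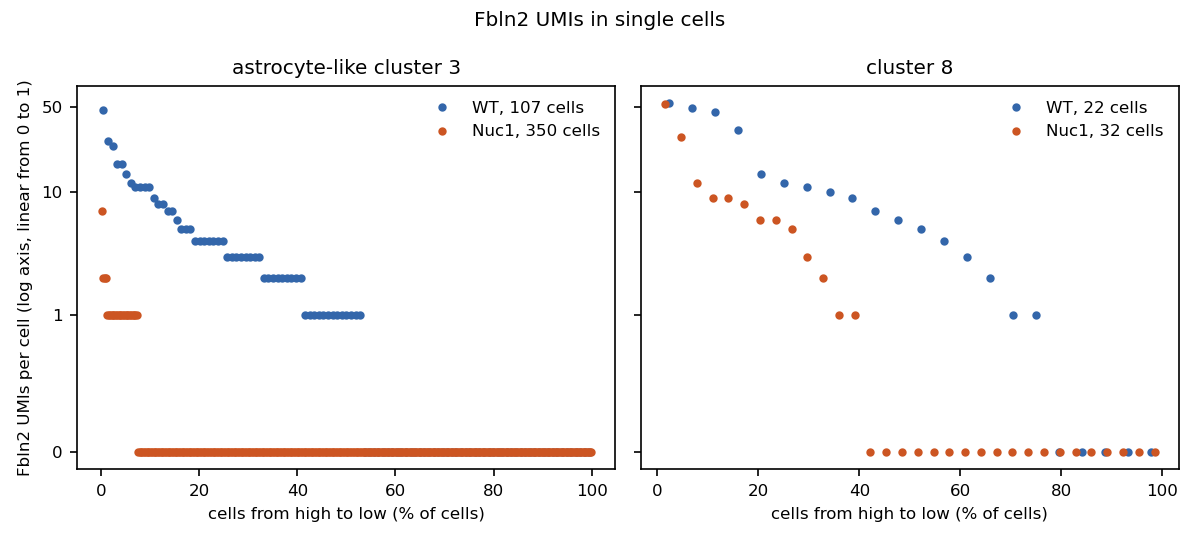
Fbln2 UMIs per cell, on a log axis that is linear from 0 to 1, with the cells of each library ordered from high to low along the x axis as a percentage of its cells, in astrocyte-like cluster 3 and in cluster 8. In cluster 3, 57 of 107 WT cells and 26 of 350 Nuc1 cells lie above 0; in cluster 8, 17 of 22 and 13 of 32 do.

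Cluster 8 held the most Fbln2 in both libraries, and there the gap was narrower. Its cells had 264 WT and 142 Nuc1 UMIs of Fbln2, a log2 ratio of −1.33 (−1.64 to −1.03). The 2 libraries differed in part of the cells they contributed. Ttr, the thyroid hormone carrier transthyretin, had 0 UMIs in the WT cells and 36140 in the Nuc1 cells. Of these, 36137 came from 4 cells that held only 1 Fbln2 UMI. Without those 4 cells, a split chosen after seeing the values, Nuc1 Fbln2 was 271 CPM and the log2 ratio −1.05 (−1.36 to −0.75). Gldn, which encodes gliomedin, also differed, from 53.3 to 1476 CPM. Other genes were found in both libraries: Nkx2-1 in 21 of 22 WT cells and in 18 of the 28 Nuc1 cells left. Pcp4 was found in 19 and 12 of these cells. Their Nuc1 levels were lower, at 207 and 102 CPM for Nkx2-1 and 1029 and 465 for Pcp4. Single cells weighed heavily, since 3 WT cells and 2 Nuc1 cells held 50% of each library's Fbln2 UMIs.

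In the collagen-rich clusters Fbln2 was scarce, with 74 UMIs over 1745 WT cells and 13 over 1263 Nuc1 cells, or 2.54 (1.99 to 3.18) and 0.57 (0.31 to 0.98) CPM. The log2 ratio was −2.14 (−3.12 to −1.28), but −0.78 with cells of at least 200 genes, −0.78 with no doublets left out and −1.12 without clustering. In the settings at −0.78 a further cluster passed the collagen limit, and Fbln2 UMIs rose from 87 to 493 although few cells were added. The added cells were thus rich in Fbln2, as those of cluster 8 were, with 264 WT and 142 Nuc1 UMIs. Those ratios therefore do not describe the same cells. At 5000 UMIs per cell 1.10% of WT and 0.24% of Nuc1 collagen-rich cells had a Fbln2 UMI, and whether these stray UMIs are free RNA was not tested. Cluster by cluster the WT counts ran from 7 to 21 and the Nuc1 counts from 0 to 6. The ratio intervals lay below 0 in clusters 0, 1, 2 and 4, and in dividing cluster 5 the interval reached from −2.70 to 0.26.

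Fbln1, which encodes a fibulin of basement membranes and elastic fibres that binds fibronectin and laminins, went the other way in the collagen-rich clusters. WT cells had 128 CPM (124 to 132), and Nuc1 cells reached 585 (575 to 595). The log2 ratio was 2.20 (2.14 to 2.25). That pooled value lay above the ratio of every single cluster (0.53 to 1.97), and with the 5 clusters weighted equally the ratio was 1.62. It thus also reflects the unequal cell make-up of the libraries. The level was higher in the Nuc1 library in 5 of 5 clusters, at 668 against 174 CPM in cluster 0, 581 against 149 in cluster 1, 165 against 49.0 in cluster 2 and 292 against 76.4 in cluster 5. Cluster 4 had the highest level in both libraries, 645 and 932 CPM, and the smallest ratio, 0.53 (0.39 to 0.67). Without that cluster, which was mostly of Nuc1 cells, the ratio was 2.03. At equal depth Fbln1 was found in 40.8% of WT and 80.6% of Nuc1 collagen-rich cells, and in astrocyte-like cells in 30.2% and 31.6%. In the astrocyte-like cluster its level was 74.4 and 88.6 CPM.

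The remaining fibulins differed less. Fibulin-5, an elastin-binding protein needed for elastic fibre assembly, had a Fbln5 level of 66.7 CPM in WT and 37.9 in Nuc1 collagen-rich cells, a log2 ratio of −0.82 (−0.93 to −0.70). Its interval lay below 0 in clusters 0, 1, 2 and 5, with ratios from −0.78 to −0.38, and in cluster 4 the levels were 24.0 and 25.2 CPM. With the 5 clusters weighted equally the Fbln5 ratio was −0.50. In astrocyte-like cells Fbln5 had 58 UMIs in each library, but 20.8 and 6.46 CPM, a log2 ratio of −1.68 (−2.24 to −1.13). Cluster 8 was the richest in Fbln5, at 296 CPM for WT and 217 for Nuc1. The ratio there was −0.45 (−0.80 to −0.10), or −0.27 (−0.63 to 0.09) without the 4 Ttr-rich cells.

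Efemp2, whose product fibulin-4 recruits lysyl oxidase to tropoelastin, had 335 CPM in WT and 408 in Nuc1 collagen-rich cells, a log2 ratio of 0.29 (0.25 to 0.33). It was the most evenly spread member, found at equal depth in 80.6% and 86.5% of these cells, and the ratio stayed between 0.09 and 0.35 in the 5 clusters. Efemp1, whose product fibulin-3 is a matrix protein of basement membranes and eye tissues, had 251 and 189 CPM, a log2 ratio of −0.41 (−0.46 to −0.36). That pooled value depended on cluster 4, which had only 22.6 and 9.28 CPM of Efemp1: without it the ratio was −0.04 (−0.10 to 0.01). By cluster the Efemp1 ratio was −0.12 (−0.21 to −0.03) in cluster 0, −0.16 (−0.26 to −0.07) in cluster 1 and −1.28 in cluster 4. It was 0.08 (−0.04 to 0.20) in cluster 2 and −0.03 (−0.22 to 0.16) in cluster 5. With the 5 clusters weighted equally the Efemp1 ratio was −0.30. In astrocyte-like cells both genes had similar levels in the libraries, at 123 and 133 CPM for Efemp1 and 179 and 195 for Efemp2, with log2 ratios of 0.11 (−0.07 to 0.29) and 0.13 (−0.02 to 0.27).

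Elastin itself was lower in the Nuc1 library. Eln had 81.1 CPM (77.9 to 84.4) in WT and 19.9 (18.1 to 21.8) in Nuc1 collagen-rich cells. The log2 ratio was −2.03 (−2.18 to −1.88). The level was lower in 5 of 5 clusters, with the widest gap in cluster 4, at 162 against 14.9 CPM, and the narrowest in cluster 1, at 60.1 against 29.7. In cluster 1, 1 Nuc1 cell held 52 of the 158 Eln UMIs, and with the highest cell of each library left out the ratio over all collagen-rich clusters was −2.18. Nuc1 collagen-rich cells with a Y-linked UMI had more Eln than those without, 36.6 against 14.6 CPM. Leaving the former out gave a ratio of −2.47 (−2.66 to −2.28). Cells with a Y-linked UMI also had more Mfap5, at 64.2 against 41.4 CPM, but less Fbln5, at 30.4 against 40.3. The lack of a Y-linked UMI does not set the sex of a cell. Outside the collagen-rich clusters Eln had 18 and 16 UMIs in the astrocyte-like cluster and 17 and 5 in cluster 8, where they came to 36.2 and 7.88 CPM. The WT macrophage-like cells had 54.1 CPM, from 13 UMIs of which 12 were in 1 cell.

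Mfap5 encodes a small glycoprotein (MAGP-2) that binds fibrillin microfibrils, and it had the largest difference among the collagen-rich cells. WT cells had 564 CPM (555 to 573), from 16448 UMIs, whereas Nuc1 cells had 46.9 (44.1 to 49.8), from 1063 UMIs. The log2 ratio was −3.59 (−3.68 to −3.50), and only 10 of 10341 genes with at least 100 UMIs had a lower one; 79 had a lower one than Eln. WT and Nuc1 levels were 558 and 46.5 CPM in cluster 0, 396 and 28.5 in cluster 1, 768 and 105 in cluster 2, 31.0 and 5.43 in cluster 4, and 567 and 90.7 in cluster 5. Mfap5 was thus lower in the Nuc1 library in 5 of 5 clusters, with ratios from −3.79 to −2.52, and without cluster 4, which has little of it in either library, the ratio was −3.24.

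The median WT collagen-rich cell had 388 CPM of Mfap5 and the median Nuc1 cell 0. At equal depth 69.3% of WT and 9.56% of Nuc1 cells had a UMI. The Nuc1 transcripts were concentrated, since 31 of 1263 cells held 50% of them, against 255 of 1745 cells in the WT library. Nuc1 collagen-rich cells with at least 3 Mfap5 UMIs, 103 in number, had 301 CPM of Fbln1, against 661 in the 1019 cells with none. The same split in the WT library, with 1167 and 305 cells, gave 101 and 247 CPM, so cells with more Mfap5 had less Fbln1 in both libraries. This split was chosen after seeing the data, and the Nuc1 cells with Mfap5 were deeper, with a median of 23783 against 14506 UMIs. The cells chosen also differed in cluster: cluster 4, where Fbln1 is highest, held 349 of the 1019 Nuc1 cells with none but 3 of the 103, and cluster 2, where it is lowest, held 392 of the 1167 WT cells with Mfap5 but 37 of the 305 without. Within cluster 0 the levels were 458 against 711 CPM of Fbln1 for Nuc1 and 158 against 258 for WT. Within cluster 5 they were 161 against 319 and 69.7 against 140. Within cluster 2 they were 168 against 173 and 46.0 against 51.2, with overlapping intervals. Within cluster 1 the Nuc1 levels were 548 against 595, with overlapping intervals, and the WT levels 136 against 180. In cluster 4 only 3 Nuc1 and 2 WT cells had at least 3 Mfap5 UMIs.

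**Figure D3:**
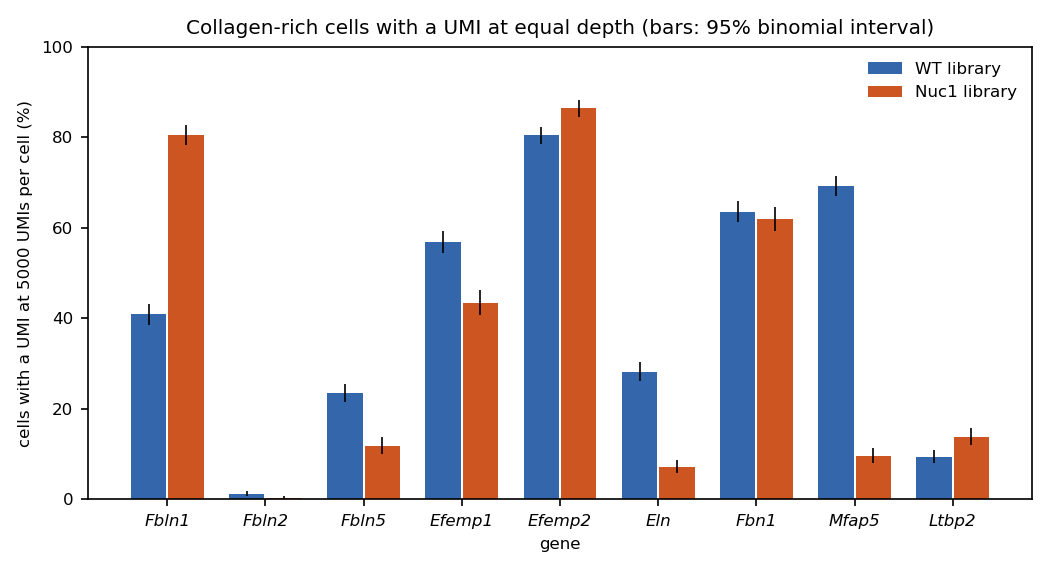
Percentage of collagen-rich cells with at least 1 UMI of each gene after every cell was thinned to 5000 UMIs, in the WT and Nuc1 libraries, with 95% binomial intervals for counting error only. Mfap5 stands at 69.3% and 9.56%, Eln at 28.2% and 7.01% and Fbln1 at 40.8% and 80.6%, while Efemp2 (80.6% and 86.5%) differs by less.

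Fbn1 and Ltbp2 did not share the lower level of Mfap5 and Eln over the collagen-rich clusters. Fibrillin-1, the main structural protein of microfibrils, had a Fbn1 level of 270.4 CPM (264 to 276) in WT and 269.7 (263 to 277) in Nuc1 cells. By cluster the Fbn1 ratio was 0.24 (0.13 to 0.34) in cluster 0, but −0.47 in cluster 2, −0.60 (−0.76 to −0.44) in cluster 4 and −0.33 in cluster 5, and with the 5 clusters weighted equally it was −0.23. Ltbp2, of the latent TGF-beta binding protein family, whose product attaches to fibrillin-1 microfibrils, had 28.0 CPM in WT and 36.4 in Nuc1 cells (log2 ratio 0.38, 0.24 to 0.52). It was higher in the Nuc1 library in cluster 0, at 29.5 against 9.34 CPM, and in cluster 1, at 41.7 against 24.6, and lower in cluster 4, at 36.1 against 62.1.

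Outside the collagen-rich clusters Ltbp2 resembled Fbln2. It had 48.0 CPM (40.2 to 56.8) in WT and 11.7 (9.56 to 14.1) in Nuc1 astrocyte-like cells, a log2 ratio of −2.04 (−2.42 to −1.66). In the motile-cilia-like cluster it had 14 and 11 UMIs, or 33.4 and 5.04 CPM, and in cluster 8 it had 443 and 156 CPM. The cluster 8 ratio was −1.51 (−1.87 to −1.15), or −1.22 without the 4 cells rich in Ttr.

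**Figure D4:**
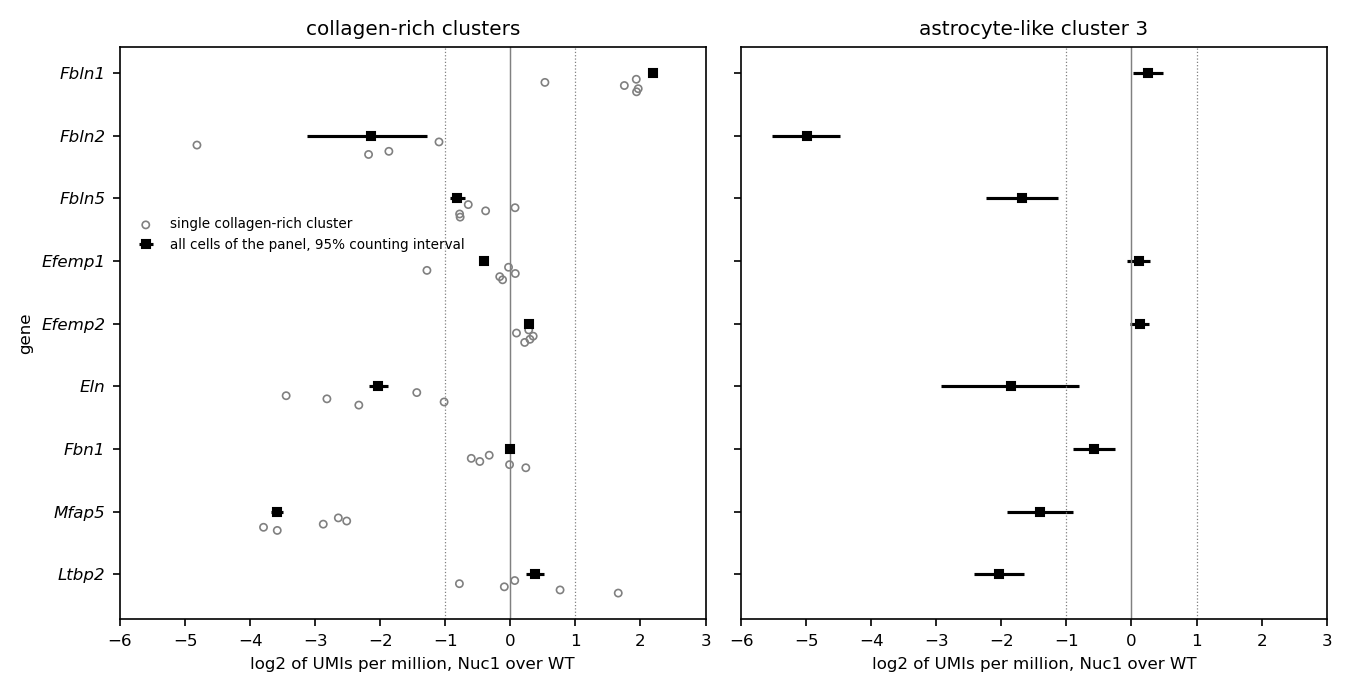
Log2 ratio of CPM, Nuc1 over WT, for the 9 measured genes: left, all collagen-rich clusters together (squares, with 95% counting intervals) and each collagen-rich cluster with UMIs in both libraries (circles); right, astrocyte-like cluster 3. Dotted lines mark a 2-fold difference. In the left panel the squares of Mfap5 (−3.59), Fbln2 (−2.14) and Eln (−2.03) lie left of the dotted lines and that of Fbln1 (2.20) right of them; in the right panel Fbln2 (−4.98), Ltbp2 (−2.04), Eln (−1.85), Fbln5 (−1.68) and Mfap5 (−1.41) lie to the left.

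Over the collagen-rich clusters, 8 members had at least 100 UMIs; Fbln2 had fewer. Of these, 2 (Eln and Mfap5) were at least 2-fold lower in the Nuc1 library, as were 3.77% of all 10341 genes tested, 1 (Fbln1) was at least 2-fold higher, as were 4.42%, and 5 lay between. Their median log2 ratio was −0.21, beside 0.02 over all genes. In the astrocyte-like cluster 8 members were tested, Eln having too few UMIs: 4 (Fbln2, Fbln5, Mfap5 and Ltbp2) were at least 2-fold lower, as were 3.93% of 7604 genes, and 0 were higher, where 1.83% of genes were. Fbln2 is among the 4 by choice. The median over all genes there was −0.11, relative to which the ratio was −4.84 for Fbln2, −1.92 for Ltbp2, −1.56 for Fbln5 and −1.29 for Mfap5. Fbn1 was also lower in Nuc1 astrocyte-like cells, at −0.58 (−0.89 to −0.25), as was Eln, at −1.85 (−2.92 to −0.80) from its 18 and 16 UMIs, while Fbln1, Efemp1 and Efemp2 had ratios above 0.

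Fibroblast and dividing-cell markers were also found in the astrocyte-like cluster, and whether their RNA came from other cells was not tested. The 8 fibroblast markers were all present in the astrocyte-like cluster and summed to 541 CPM in its WT and 440 in its Nuc1 cells. WT Mfap5 in this cluster stood at 3.94% of its collagen-rich level, below the 4.67% of the collagen gene Col1a1, whereas Ltbp2 stood at 171%. In the Nuc1 cells these shares were 17.8% for Mfap5, 5.64% for Col1a1 and 32.1% for Ltbp2. When astrocyte-like cells with over 300 CPM of Col1a1, Col3a1, Dcn and Lum were left out, 90 WT and 288 Nuc1 cells remained, and the ratios were −5.34 for Fbln2, −2.23 for Ltbp2, −2.23 for Fbln5 and −1.54 for Mfap5. Fbn1 was then at −1.26 (−1.71 to −0.81), past the 2-fold limit, and Eln at −3.04 (−5.59 to −0.98) from 8 and 3 UMIs. Fbln1 moved from above 0 to −0.04 (−0.29 to 0.22). The 6 dividing-cell markers summed to 280 and 48.5 CPM in the cluster, and without cells carrying Mki67, Top2a or Cdk1 the Fbln2 ratio was −5.59.

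Of 37 further genes of the elastic fibre pathway, 33 were in the count files and 20 had at least 100 UMIs in the collagen-rich clusters. There 2 were at least 2-fold lower in the Nuc1 library and 0 higher, beside the 3.77% and 4.42% of all genes, with a median log2 ratio of −0.17 beside 0.02. They were Ltbp4, a latent TGF-beta binding protein that helps fibulin-5 assemble elastic fibres, at 58.1 and 27.1 CPM, and Vcan, the fibulin-2 partner versican, at 211 and 78.4. The elastin cross-linking enzyme Lox came just short of the limit, at 1763 and 903 CPM (−0.96). The other cross-linking enzymes tested were at −0.34 (Loxl1), 0.26 (Loxl2) and 0.36 (Loxl3). Of the genes that defined collagen-rich cells, Col1a1 had 5342 and 2759 CPM (−0.95), while Col3a1 was at −0.09, Dcn at −1.25 and Lum at −1.40. The 7 microfibril genes tested had ratios from −1.10 for Ltbp4 to 0.84 (0.53 to 1.15) for Ltbp1, with Ltbp3 at −0.41, Adamts10 at −0.07, Emilin1 at −0.01, Mfap2 at 0.07 and Fbn2 at 0.23. In the astrocyte-like cluster 13 were tested, of which 4 were at least 2-fold lower and 0 higher, beside 3.93% and 1.83% of all genes, with a median of −0.40 beside −0.11. The 4 included 3 of the 4 fibulin-2 partners tested: fibronectin (Fn1), at 1600 and 495 CPM, Nid2, at 17.9 and 8.24, and Vcan, at 67.6 and 31.3. The other was Lox, at 217 and 79.4 CPM.

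Genes with a pattern like that of a member were ranked by Pearson r of log2(CPM + 1) over the 5 collagen-rich clusters in both libraries (10 points, 7229 genes outside both lists with at least 500 UMIs; points share libraries, and r is a description). For Fbln2 the rule named Ide (0.96), Ing5, Evl, Erich1 and Ppp4r3a (0.92 each), but there Fbln2 had at most 21 UMIs per point. Over all clusters (20 points, added after seeing the data) Gldn came first, at 0.86. The same ranking, also added, gave genes that included Tspan18 (0.99), Sdc2, Lurap1l and Spcs3 for Mfap5, Manea (0.98), Brd1, Mob1a, Sap30l and Car3 for Eln, and Atp1b2 (0.98), Islr, Eif2ak1 and Apol3 for Fbln1. Of these, the carbonic anhydrase gene Car3 had 124 CPM in WT cells against 4.59 in Nuc1 cells, and Islr had a log2 ratio of 1.89.

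Sequence before the start site was read from a set of promoter sequences (GRCr8), which held 7 of the 10 members. The bounds of the annotated genes came from RefSeq. The stretches lying outside the annotated gene are shown for Fbln2, around which the set was built, for Mfap5, the member with the largest difference in collagen-rich cells, and for Efemp1, a fibulin with a ratio of 0.11 in astrocyte-like cells. They run 5′ to 3′ on the gene's strand, all plus, at chr4:125261409-125261463, chr4:157399669-157399918 and chr14:106811614-106811768, with capitals for any motif match.
Fbln2: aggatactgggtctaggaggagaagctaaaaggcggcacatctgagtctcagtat
Mfap5: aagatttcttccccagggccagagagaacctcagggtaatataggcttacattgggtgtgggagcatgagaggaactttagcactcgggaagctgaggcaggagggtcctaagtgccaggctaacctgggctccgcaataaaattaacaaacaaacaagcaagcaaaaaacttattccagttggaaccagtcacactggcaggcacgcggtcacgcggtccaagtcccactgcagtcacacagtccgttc
Efemp1: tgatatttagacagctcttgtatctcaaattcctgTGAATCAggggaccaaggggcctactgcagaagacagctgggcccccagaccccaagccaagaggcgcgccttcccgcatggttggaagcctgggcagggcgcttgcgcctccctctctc
Both strands of the 250 bases before each start were searched for GGGCGG (GC box), TTCNNNGAA (STAT), TGANTCA (AP-1), GGAATG (TEAD) and TATAAA (basal promoter). These letters occur in 30.5%, 7.67%, 6.34%, 12.1% and 12.9% of 33469 promoters. Mfap5 held none of the 5. Efemp1 held the AP-1 letters, shown in capitals, and 1 GC box match nearer the start. Fbln2 held 3 GC box matches, all in the part that overlaps the annotated gene and is not shown. A match is a description of letters, and no match says nothing of a factor.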

How the data were processed

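Mixed optic nerve cultures gave 1 WT and 1 Nuc1 library. The authors ran Cell Ranger 3.1.0 and STAR 2.7 and deposited raw UMI counts per gene and barcode, without normalization; Seurat 3.1.0 and 3.1.1 appear in the submitters' processing notes. The genome build is not given in the sources used here. The files held 2107 WT and 1929 Nuc1 barcodes with 34517542 and 35794685 UMIs.

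Cells were kept if they had 500 or more genes and no more than 20% of UMIs from 13 mitochondrial genes. Scrublet (scanpy 1.11.5) marked 2 WT and 13 Nuc1 doublets, fewer than the 2% set, so doublets can remain. Seurat 5.3.0 (R 4.3.3) integrated the libraries by anchors on 2000 variable genes, leaving out members and pathway list, and clustered 30 principal components at resolution 0.5. Cluster names are rebuilt and can differ from the study's.

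UMIs were summed per gene, library and cluster and given as CPM. Intervals (95%) are exact Poisson, binomial or conditional and cover counting error only; ratios over all genes had 0.5 UMIs added. A gene was called at 2-fold with at least 100 UMIs. The ratio step was run on simulated Poisson sums, where 95.7% of the intervals held the set value. This checks the calculation only, since the simulation had no variation between libraries or cells. Thinning to 5000 UMIs left out 16 WT and 8 Nuc1 collagen-rich and 1 and 5 astrocyte-like cells. edgeR 4.0.16 gave TMM factors as an alternative; no test was run.

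Named genes are the members, pathway genes at least 2-fold different, and the 5 genes most like Fbln2; other named genes were chosen after their values were seen, and some genes of the likeness rankings are not reported here. Members and lists were chosen with earlier results of these data known.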

Additional observations from a re-analysis of the deposited data

Results flagged for a closer look

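Fbn1 and Ltbp2 moved in opposite directions between cell groups under the same comparison of Nuc1 with WT. The log2 ratio of Fbn1 was 0.24 in cluster 0 and −0.60 in cluster 4, and that of Ltbp2 was 1.66 in cluster 0 and −2.04 in astrocyte-like cluster 3. The differences between clusters were not tested, since each genotype has 1 library. Cluster 4 was unequal between the libraries, with 54 WT and 368 Nuc1 cells.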

How the results depend on the processing

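No paired analysis was possible because there is only 1 library per genotype, and none could be left out. Members lower by 2-fold in collagen-rich cells numbered 2 in the reported setting and 2 to 3 over 21 alternatives; members higher numbered 1 throughout. Over 20 alternatives the median of the members ran from −0.41 to −0.09, Mfap5 from −3.95 to −3.08, Eln from −2.47 to −1.87, Fbln1 from 1.62 to 2.40 and Fbn1 from −0.23 to 0.15. No direction turned for the other members. Fbln2 in collagen-rich cells was −0.78 with at least 200 genes per cell and −0.78 with no doublets left out, where 6 clusters passed the collagen limit and its UMIs rose to 493, and −1.12 with cells chosen by collagen markers without clustering. The settings at −0.78 added few cells but many Fbln2 UMIs, so their ratios cover other cells than the reported setting. In astrocyte-like cells the Fbln2 ratio was −3.80 on cells thinned to 5000 UMIs, −5.59 without dividing cells and −2.43 without cells of at least 3 Fbln2 UMIs. The last of these removes cells by the value being compared, mostly WT cells, which narrows the gap by construction. Alternatives without cluster 4, without cluster 5, without cells of at least 3 Fbln2 UMIs and with only cells of over 20000 UMIs were chosen after seeing the data. Fbln2 in collagen-rich cells rests on 74 and 13 UMIs.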

Other observations

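Astrocyte-like cells with a Fbln2 UMI differed from those without in contractile genes, in genes chosen after their values were seen. In the WT library the 57 cells with Fbln2 had 67.2 CPM (55.0 to 81.4) of Cnn1, which encodes calponin, against 10.5 (5.6 to 18.0) in the 50 cells without, and 964 against 430 CPM of Tagln, which encodes transgelin. The 26 Nuc1 cells with Fbln2 had 90.3 CPM of Cnn1 against 7.47 in the other 324, and 1567 against 642 CPM of Tagln. Gldn went with Fbln2 in both libraries, at 62.8 against 7.3 CPM in WT and 52.4 against 8.2 in Nuc1 cells. The smooth muscle actin gene Acta2 had 53.1 and 25.2 CPM in WT cells, from 83 and 31 UMIs. In Nuc1 cells Acta2 had 16.0 and 0.12 CPM, from only 11 UMIs in the 26 cells and 1 UMI in the 324. These Nuc1 counts are too few to set the size of the gap. Gfap was 6789 and 7067 CPM in WT cells with and without Fbln2, and median depths were 26211 and 23197 UMIs. In Nuc1 cells Gfap was lower in those with Fbln2, at 6869 against 9782 CPM, as was the water channel gene Aqp4, at 1293 against 1700. Median fibroblast marker levels were 75.2 and 100.6 CPM, lower in WT cells with Fbln2, but 39.9 and 0 CPM in Nuc1 cells, higher in those with it.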
